A study of Homo sapiens with 42 samples.

Results

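Matrix metalloproteinases (MMPs) and the tissue inhibitors of metalloproteinases (TIMPs) were followed through every whole-cell library of the series. The set held 10 named genes of the 60606 genes in the table, 6 of them proteases (MMP1, MMP2, MMP3, MMP10, MMP14 and MMP24) and 4 inhibitors (TIMP1 to TIMP4). The set was chosen by gene name, and MMP3 was selected on its measured TPM in the cells expressing the R343W variant, so its level in R343W is given as a description with no test.

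The cells were AC16, a human line made by fusing adult ventricular cardiomyocytes with transformed fibroblasts, treated with doxycycline at 1 ug/ml. Every line carried a doxycycline-inducible hairpin. One control line had a scrambled hairpin (shScramble) and another had the hairpin against the ribosomal protein gene RPL3 (shRPL3). The other 8 lines had the RPL3 hairpin together with a lentiviral construct for RPL3L, the heart and skeletal muscle paralogue of RPL3, as wild type (RPL3L-WT) or with 1 of 7 amino acid changes, which were G27D, R161W and T189M, P291L and R343W, and D308N with D308V. Only the P291L labels call the RPL3L construct itself doxycycline-inducible. Whether the RPL3L-WT construct and those of the other variants were inducible too is not stated in their labels. Hairpin cells were kept by hygromycin, and RPL3L cells were kept by sorting on a BV421 signal; how long doxycycline was given is not stated. Each of the 10 groups had 3 polyA libraries, 30 in all. Nothing in the labels ties a replicate to a separately made line, and the spread that p-values rest on may therefore be technical. Another 12 libraries of nuclear RNA were not used for these genes.

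MMPs are zinc proteases that cleave the extracellular matrix. Most are secreted as inactive zymogens, and a few, such as MMP14 and MMP24, sit in the plasma membrane. TIMPs bind the active site and block it. TIMP2 also takes part in activation, because a complex of MMP14 and TIMP2 at the cell surface captures pro-MMP2 for cleavage. In the heart the balance of MMPs and TIMPs governs turnover of the collagen network, and fibroblasts are a main source of both.

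The catalytic zinc is held by 3 histidines in a short stretch shared by all MMPs. The coding stretch of 33 bases over these histidines is given for the 6 proteases, 5′ to 3′ on the coding strand, with the histidine codons in capitals. It shows how closely MMP3 resembles MMP10, which bears on whether reads of the 2 genes can be told apart.
MMP3: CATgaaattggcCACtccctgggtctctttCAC
MMP10: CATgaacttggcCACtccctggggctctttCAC
MMP1: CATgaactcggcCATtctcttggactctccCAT
MMP2: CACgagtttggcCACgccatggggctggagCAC
MMP14: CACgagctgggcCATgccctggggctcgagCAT
MMP24: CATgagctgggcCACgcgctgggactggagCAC
MMP3 and MMP10 differed at 2 of these 33 bases, and MMP3 and MMP1 at 9. Over the aligned coding sequence MMP3 and MMP10 were 85.2% identical. Of the 2047 distinct 31-base words in the MMP3 transcripts, 125 also occurred in MMP10 and none in MMP1. Most of the MMP3 sequence therefore separated it from its nearest relative in this set.

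Values are TPM (transcript abundances scaled to a fixed total per library), and they are scaled for transcript length, so levels may be set side by side between genes. Sequencing depth is unknown, because TPM keep no depth. Differences are of log2(TPM + 1) from limma, fitted over all 30 libraries and 14426 genes with a mean of at least 1 TPM, and a gene was called at a Benjamini-Hochberg adjusted p under 0.05. The scale understates differences of low genes. Of the 10 members, 7 passed this filter. MMP1 (mean 0.252 TPM), MMP10 (0.00271 TPM) and TIMP4 (0.961 TPM) did not, and their tests come from a fit of all 39832 genes above 0 in any library. MMP3 passed without the R343W libraries as well, with a mean of 1.22 TPM over the other 27. In bulk RNA, fewer cells of a type and less RNA per cell cannot be told apart.

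Several libraries stood apart. The principal component of 334 pseudogenes split the libraries into 24 of a first kind and 6 of a second kind, which were RPL3L-WT replicates 1 and 2, G27D replicate 3, R161W replicate 1 and T189M replicates 1 and 2. Between the kinds 8344 of 14426 genes differed, among them TIMP1 (log2 difference -0.14, adjusted p = 0.000729 by limma) and TIMP2 (-0.22, adjusted p = 1.78e-06), both lower in the second kind. Comparisons among shScramble, shRPL3, P291L, D308N, D308V and R343W set only libraries of the first kind side by side. The spread behind their p-values still comes from all 30 libraries, of both kinds. With library kind as a term in the model, the genes called in shRPL3 against shScramble went from 35.2% to 48.9%. For calls of members against RPL3L-WT the value with library kind as a term in the model is given too. RPL3 was 1534 to 1611 TPM in shScramble and 499.6 to 569.8 TPM in shRPL3. In R161W it was 1059, 1686 and 1570.0 TPM, overlapping shScramble, although this line is labelled as carrying the RPL3 hairpin. RPL3L was at 121 TPM in shRPL3 replicate 3, against 0.029 and 0.0353 TPM in the other two. Leaving that library out lost 4 of the member calls against shRPL3, namely TIMP2 in RPL3L-WT (-0.19, adjusted p = 0.106 by limma), MMP14 in P291L (-0.14, adjusted p = 0.197), and MMP24 and TIMP2 in R343W (-0.29 and -0.21, adjusted p = 0.096 and 0.124). It added MMP14 in D308N (0.24, adjusted p = 0.027). Of 11 cardiomyocyte markers, all had a median under 1 TPM, and their sum was 0.165 to 4.22 TPM per library. By contrast, all 10 fibroblast markers had a median of at least 1 TPM. The defining cardiomyocyte markers were thus near 0 in cells labelled cardiomyocyte-like. The summed level of 5 smooth muscle markers, 2 of them with a median under 1 TPM, was 355 to 369 TPM in shRPL3. It was 136 to 158 TPM in R343W, 160 to 168 TPM in D308N and 172 to 181 TPM in D308V. Most of the smooth muscle sum was TAGLN alone, at 120 to 624 TPM over all libraries. The summed level of 6 leukocyte and macrophage markers, 4 of them with a median under 1 TPM, was 146 to 155 TPM in R343W. It was 65 to 69.5 TPM in shRPL3 and 118 to 236 TPM in RPL3L-WT. Most of that sum was CD68 alone, at 62.2 to 248 TPM over all libraries. The part of these markers in the differences of these lines was not tested.

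MMP3, stromelysin 1, cleaves proteoglycans, laminin and fibronectin and activates other pro-MMPs. It lies at chr11:102835801-102843803 on the minus strand (GRCh38, GENCODE 29), in a cluster with MMP1 and MMP10. In the 3 R343W libraries it stood at 14.8, 14.8 and 14.2 TPM. In RPL3L-WT it was 0.544, 0.512 and 0.672 TPM. In shRPL3 it was 0.521, 0.557 and 1.62 TPM. The R343W libraries lay above all 27 others, and the mean was 25.4 times that of RPL3L-WT and 16.2 times that of shRPL3. These are the values that chose the gene and support nothing further.

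**Figure D1:**
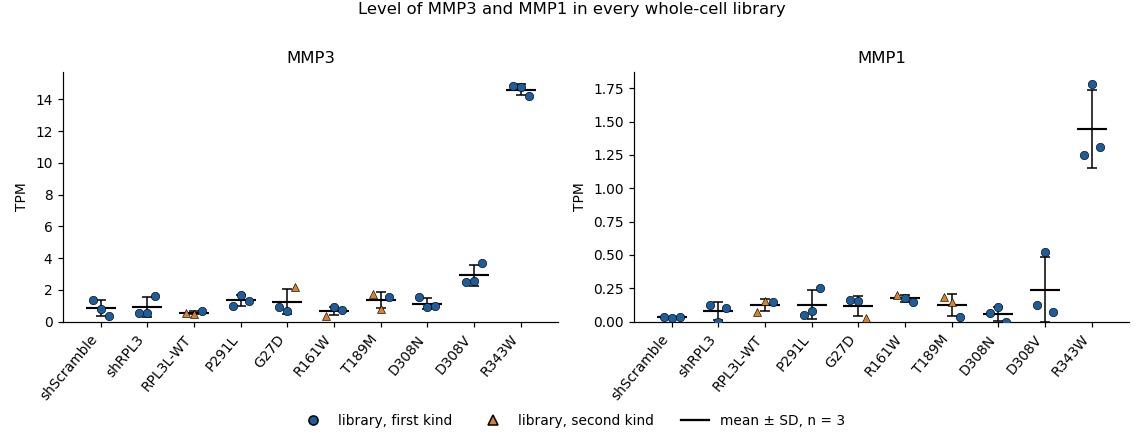
Levels of MMP3 (left) and MMP1 (right) in TPM on linear axes, by group, with 1 point per library (circles, first kind; triangles, second kind) and the mean ± SD of 3. The R343W libraries sit at 14.2 to 14.8 TPM for MMP3 and 1.25 to 1.78 TPM for MMP1, and D308V is the next highest group for both.

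D308V was the second highest group for MMP3, which the choice of the gene did not use. Its libraries held 2.48, 2.55 and 3.70 TPM, with no overlap with any other group. MMP3 was higher in D308V than in shRPL3 by 1.08 on the log2 scale (SE 0.24, adjusted p = 0.0026 by limma). It was higher than in RPL3L-WT by 1.30 (SE 0.24, adjusted p = 0.000259), and by 1.31 with library kind in the model. The RPL3L-WT libraries were part of the contrast that chose MMP3, so the difference from RPL3L-WT is not independent of that choice. D308N, with a different change at the same residue, had 1.53, 0.930 and 0.963 TPM. The difference of D308N from D308V was -0.87 (95% interval -1.36 to -0.38, adjusted p = 0.0628), which missed the threshold although the libraries did not overlap; with library kind in the model the adjusted p was 0.024.

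The other groups formed a low band for MMP3. shScramble held 1.36, 0.820 and 0.379 TPM. The G27D libraries held 0.932, 0.704 and 2.16 TPM, and those of T189M 1.72, 0.818 and 1.56 TPM. P291L held 1.02, 1.71 and 1.30 TPM, and R161W 0.379, 0.915 and 0.707 TPM. From RPL3L-WT, the lowest mean, up to T189M each group overlapped the next, and none of P291L, G27D, R161W, T189M and D308N passed the test against RPL3L-WT for MMP3.

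MMP1, interstitial collagenase, cuts fibrillar collagens I, II and III. It lies at chr11:102789920-102798160, also on the minus strand. In R343W it held 1.25, 1.78 and 1.31 TPM, and in shRPL3 0.127, 0 and 0.103 TPM. In the other groups no library exceeded 0.522 TPM, a value of D308V replicate 2. MMP1 rose in R343W against shRPL3 by 1.18 (SE 0.11, adjusted p = 1.33e-07 by limma without the filter), with all 3 libraries above all 3. Against RPL3L-WT the log2 difference was 1.12, given as a description. WTAPP1, a pseudogene on the opposite strand that shares 94 of the 1940 MMP1 words of 31 bases, was listed at 0 in all 3 R343W libraries.

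MMP10, stromelysin 2, lies next to MMP1 at chr11:102770503-102780628. It was listed at 0 in 28 of 30 libraries, and reached 0.023 TPM in P291L replicate 2 and 0.0582 TPM in R343W replicate 3. Its neighbours MMP1 and MMP3 were thus measurable in R343W while MMP10 was near 0. Its promoter is shown because the cluster's genes differed so widely and because it is the 1 promoter of the cluster in the RefSeq table used. The 250 bases before its start (chr11:102780629-102780878, minus strand, GRCh38.p14, RefSeq) follow, with a TGANTCA match, 67 bases before the start, and a TATAAA match, 31 bases before the start, in capitals.
MMP10 promoter: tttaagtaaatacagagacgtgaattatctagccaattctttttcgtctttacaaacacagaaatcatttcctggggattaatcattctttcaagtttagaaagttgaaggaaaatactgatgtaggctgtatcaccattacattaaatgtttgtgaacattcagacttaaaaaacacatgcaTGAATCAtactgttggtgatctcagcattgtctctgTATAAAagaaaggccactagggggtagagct
TGANTCA, searched on both strands as a loose form of the AP-1 site, occurred in 6.6% of 27305 RefSeq promoter windows of this length, and TATAAA in 7.17%. Neither TGANTCA nor TATAAA occurred in the windows of MMP14, MMP24, TIMP1, TIMP3 or TIMP4.

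MMP2, gelatinase A, degrades denatured collagen and basement membrane collagen IV, and was the most abundant protease of the set. It lies at chr16:55389700-55506691 on the plus strand. shScramble held 260.3, 249 and 252 TPM, and shRPL3 349, 331 and 342 TPM. MMP2 rose in shRPL3 against shScramble by 0.42 (SE 0.05, adjusted p = 3.56e-07 by limma), with no overlap. RPL3L-WT held 257, 234 and 254 TPM, overlapping shScramble. MMP2 fell in RPL3L-WT against shRPL3 by 0.45 (SE 0.05, adjusted p = 8.12e-07), and by 0.47 with library kind in the model.

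The variants spread to both sides of RPL3L-WT for MMP2. D308V was highest at 431, 416 and 428 TPM, 0.77 above RPL3L-WT (SE 0.05, adjusted p = 6.92e-11 by limma; 0.79 with library kind in the model) and 0.32 above shRPL3 (adjusted p = 5.67e-05). R161W held 341, 340.2 and 354 TPM and R343W 342.9, 331.8 and 337.1 TPM, both overlapping shRPL3. R161W was above RPL3L-WT by 0.47 (adjusted p = 6.26e-07; 0.48 with library kind in the model). The R343W level was 0.44 above RPL3L-WT, as a description, and -0.01 from shRPL3 (95% interval -0.11 to 0.09, adjusted p = 0.894).

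P291L, T189M and G27D formed the low end for MMP2. P291L held 201, 202 and 204 TPM, T189M 207, 206 and 206 TPM, and G27D 205, 201 and 227 TPM. All 3 were below RPL3L-WT, by 0.29, 0.27 and 0.23 on the log2 scale (adjusted p = 0.00149, 0.00498 and 0.00762 by limma). The differences were -0.28, -0.27 and -0.23 with library kind in the model, each called. The G27D call was lost without RPL3L-WT replicate 1, G27D replicate 1 or G27D replicate 2 (adjusted p = 0.0539, 0.0549 and 0.0646). D308N lay between, at 289.7, 276 and 273 TPM. It was 0.17 above RPL3L-WT (adjusted p = 0.00973; 0.18 with library kind in the model), a call lost under median-ratio scaling (0.02, adjusted p = 0.824) and without RPL3L-WT replicate 2 or D308N replicate 1 (adjusted p = 0.0803 and 0.051).

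MMP14, the membrane protease that activates pro-MMP2, lies at chr14:22836557-22849027 on the plus strand. D308V held 96.2, 87.7 and 90.3 TPM and R343W 90.4, 79.6 and 93.9 TPM. shRPL3 held 64.0, 62.3 and 73.9 TPM, below every library of both. MMP14 rose against shRPL3 by 0.45 in D308V (SE 0.07, adjusted p = 8.5e-05 by limma) and by 0.39 in R343W (SE 0.07, adjusted p = 0.00027). Against RPL3L-WT, at 65.4, 61.3 and 64.4 TPM, D308V was higher by 0.51 (adjusted p = 1.1e-05; 0.52 with library kind in the model).

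MMP14 in D308N held 71.5, 79.4 and 74.0 TPM, between RPL3L-WT and D308V. It was 0.23 above RPL3L-WT (adjusted p = 0.0153 by limma; 0.24 with library kind in the model). That call was lost under median-ratio scaling (0.08, adjusted p = 0.444), in the first-kind libraries (0.22, adjusted p = 0.136) and without RPL3L-WT replicate 2 or D308N replicate 2 (adjusted p = 0.0715 and 0.0806). P291L, at 57.7, 56.5 and 56.9 TPM, was 0.22 below shRPL3 (adjusted p = 0.0315), lost under median-ratio scaling (-0.11, adjusted p = 0.401) and without shRPL3 replicate 3 or any 1 of the P291L libraries (adjusted p up to 0.197). The remaining groups, shScramble, G27D, R161W and T189M, lay between 55.6 and 67.4 TPM and none of the last 3 passed against RPL3L-WT.

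MMP24, the membrane protease MT5-MMP known mostly from nervous tissue, lies at chr20:35226654-35277000 on the plus strand. It shares 741 of 4384 words of 31 bases with its antisense partner MMP24OS, which stood at a mean of 45.5 to 61.7 TPM per group, so reads may have been split between them and MMP24 is uncertain. It was highest in shScramble, at 4.28, 3.36 and 3.89 TPM, and in R161W, at 3.09, 4.16 and 4.20 TPM. It was lowest in D308V, at 1.56, 1.31 and 1.64 TPM, and D308N, at 1.55, 1.39 and 1.64 TPM. shRPL3 held 2.52, 2.48 and 2.66 TPM and RPL3L-WT 2.12, 2.02 and 2.12 TPM.

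MMP24 fell in shRPL3 against shScramble by 0.44 (SE 0.10, adjusted p = 0.00158 by limma). It was higher in R161W than in RPL3L-WT by 0.63 (adjusted p = 0.000189; 0.58 with library kind in the model), and lower than in shRPL3 by 0.51 in D308V and 0.49 in D308N (adjusted p = 0.00122 and 0.00138). Its calls in D308N and D308V against RPL3L-WT (-0.29 and -0.31, adjusted p = 0.0329 and 0.0272) and in R343W against shRPL3 (-0.32, adjusted p = 0.0324) were each lost without at least 3 of the 6 libraries taken singly, with adjusted p up to 0.114, 0.115 and 0.104. The differences of D308N and D308V from RPL3L-WT were -0.39 and -0.41 with library kind in the model (adjusted p = 0.00868 and 0.00702). RPL3 itself was highest in shScramble and R161W, the groups with most MMP24, and its part in the MMP24 differences was not tested.

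**Figure D2:**
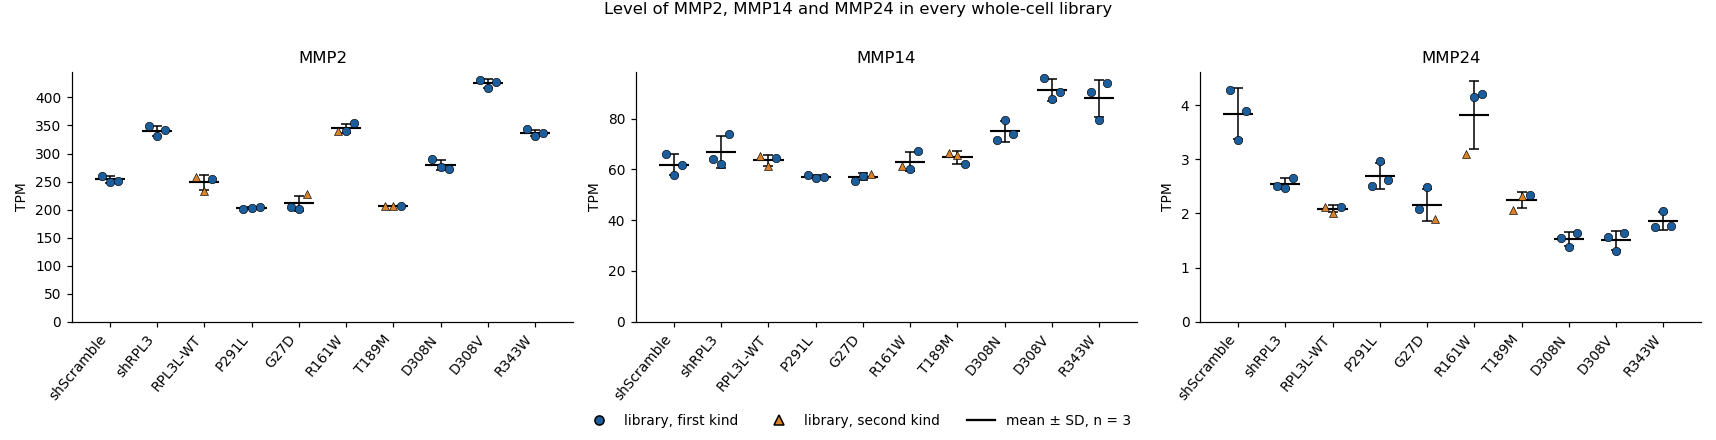
Levels of MMP2, MMP14 and MMP24 in TPM on linear axes from 0, by group, with 1 point per library (circles, first kind; triangles, second kind) and the mean ± SD of 3. D308V is highest for MMP2 and, with R343W, for MMP14, while MMP24 is highest in shScramble and R161W.

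TIMP1, a broad inhibitor that binds pro-MMP9 and is often raised in fibrosis, was the most abundant member. It lies at chrX:47582313-47586789, overlapped by SYN1 on the other strand. Its group means ran only from 372 TPM in D308N to 445 TPM in P291L, and each group overlapped the next in this order. P291L held 445, 459 and 429.5 TPM and shRPL3 354, 363 and 400.4 TPM. TIMP1 was higher in P291L than in shRPL3 by 0.26 (SE 0.07, adjusted p = 0.00808 by limma), the 1 call for TIMP1 in the 14 comparisons tested. With library kind in the model TIMP1 was called in 5 more comparisons. It was then higher in RPL3L-WT than in shRPL3 (0.22, adjusted p = 0.00223) and than in shScramble (0.19, adjusted p = 0.0028), and higher in R343W than in shRPL3 (0.15, adjusted p = 0.0123). It was lower than in RPL3L-WT in D308N (-0.22, adjusted p = 0.00163) and D308V (-0.16, adjusted p = 0.017).

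TIMP2, which blocks MMP2 and also joins MMP14 in its activation, lies at chr17:78852977-78925387 on the minus strand. TIMP2 shares 558 of 5654 words of 31 bases with other genes, mostly AC022966.1 and CEP295NL, so reads may have been split between them. It was highest in shScramble, at 259, 237 and 242 TPM. shRPL3 held 148, 148 and 154 TPM and RPL3L-WT 119, 123 and 148 TPM. TIMP2 fell in shRPL3 against shScramble by 0.71 (SE 0.08, adjusted p = 2e-07 by limma), the largest change there among the 7 members that passed the filter. The lower level in RPL3L-WT than in shRPL3 (-0.21, adjusted p = 0.0389) was lost with library kind in the model (-0.06, adjusted p = 0.33), under median-ratio scaling (-0.01, adjusted p = 0.951) and without any 1 of 5 of the 6 libraries, the exception being RPL3L-WT replicate 3 (adjusted p = 0.0022 to 0.198).

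Among the variants TIMP2 was lowest in D308N, at 93.8, 89.5 and 89.2 TPM, and G27D, at 100.1, 106 and 91.6 TPM. Both fell against RPL3L-WT, by 0.51 in D308N (adjusted p = 3.77e-05 by limma) and 0.38 in G27D (adjusted p = 0.00648), and by 0.65 and 0.46 with library kind in the model. R161W, at 163, 188 and 197 TPM, was 0.49 above RPL3L-WT (adjusted p = 0.000156) and 0.42 with library kind in the model. D308V held 118, 109.8 and 117 TPM, below shRPL3 by 0.38 (adjusted p = 0.00133). Against RPL3L-WT its difference was -0.17 (adjusted p = 0.0975), and -0.32 with library kind in the model (adjusted p = 1.28e-05). R343W, at 133, 125 and 126 TPM, was 0.23 below shRPL3 (adjusted p = 0.043), a call lost without any 1 of the 6 libraries (adjusted p = 0.051 to 0.128).

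TIMP3, the inhibitor that binds to the matrix and also blocks ADAM proteases, lies at chr22:32801701-32863043 on the plus strand and overlaps SYN3 on the other. shScramble held 25.4, 24.2 and 24.5 TPM, shRPL3 21.6, 21.3 and 21.8 TPM, and R161W 25.6, 25.1 and 28.2 TPM. RPL3L-WT held 42.7, 41.8 and 46.2 TPM. No library of the other RPL3L lines was under 31.1 TPM, so the 3 groups with the lowest level were both lines without RPL3L and R161W.

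TIMP3 rose in RPL3L-WT against shRPL3 by 0.98 (SE 0.06, adjusted p = 2.63e-10 by limma), a mean 2.02 times as high, and by 1.01 with library kind in the model. It rose against shRPL3 in P291L by 1.11 (adjusted p = 1.35e-11), in R343W by 1.08 (adjusted p = 1.22e-11), in D308V by 0.77 (adjusted p = 6.87e-09) and in D308N by 0.60 (adjusted p = 2.79e-07). These comparisons share the shRPL3 libraries. The R161W level was 0.71 below RPL3L-WT (adjusted p = 5.51e-08). With library kind in the model the differences from RPL3L-WT were -0.72 in R161W, -0.41 in D308N, -0.31 in G27D and -0.24 in D308V, each called. D308N, at 34.4, 31.1 and 34.0 TPM, was 0.38 below RPL3L-WT (adjusted p = 6.45e-05), and G27D, at 33.6, 34.9 and 37.4 TPM, 0.29 below (adjusted p = 0.00811; 0.0608 without G27D replicate 1). D308V, at 37.9, 36.3 and 38.3 TPM, was 0.21 below (adjusted p = 0.0128; 0.0561 without D308V replicate 2). The fall in shRPL3 against shScramble was small (-0.19, adjusted p = 0.0196) and was lost without shScramble replicate 1 or shRPL3 replicate 2 (adjusted p = 0.0726 and 0.0598).

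TIMP4, the inhibitor best known from heart muscle, lies at chr3:12153051-12159351 on the minus strand, overlaps SYN2 on the other, and was the scarcest inhibitor. shScramble held 2.28, 1.55 and 1.72 TPM, and shRPL3 0.337, 0.411 and 0.486 TPM. TIMP4 fell in shRPL3 against shScramble by 1.01 (SE 0.19, adjusted p = 0.00081 by limma without the filter). In R343W it held 1.42, 1.50 and 1.18 TPM, higher than in shRPL3 by 0.74 (adjusted p = 0.0206). RPL3L-WT, at 0.313, 0.338 and 0.959 TPM, was lower than shScramble by 0.91 (adjusted p = 0.00169; -0.71 with library kind in the model, adjusted p = 0.0153). TIMP4 shares 140 of 1620 words of 31 bases with SYN2, so its low values carry that doubt.

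**Figure D3:**
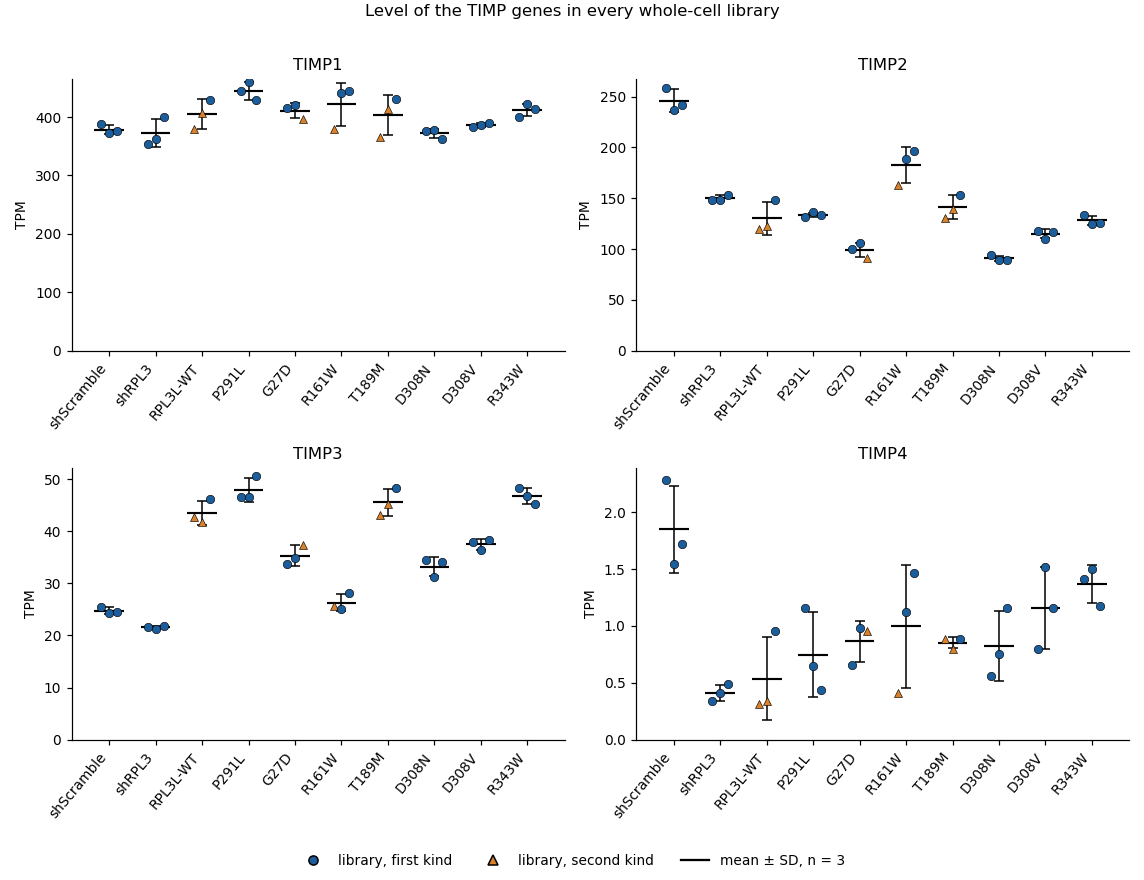
Levels of TIMP1, TIMP2, TIMP3 and TIMP4 in TPM on linear axes from 0, by group, with 1 point per library (circles, first kind; triangles, second kind) and the mean ± SD of 3. TIMP1 hardly separates the groups, TIMP2 and TIMP4 are highest in shScramble, and TIMP3 is lowest in shScramble, shRPL3 and R161W.

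The ratio of MMP2 to TIMP2 within a library compares a protease with its inhibitor and does not depend on library scaling. It was 1.03 ± 0.024 in shScramble (SD, n = 3) and 2.27 ± 0.072 in shRPL3. The RPL3L-WT ratio was 1.92 ± 0.22. The highest ratios were 3.70 ± 0.080 in D308V and 3.08 ± 0.016 in D308N, with 2.63 ± 0.054 in R343W. T189M and P291L, at 1.47 ± 0.12 and 1.52 ± 0.027, were the lowest of the lines with the RPL3 hairpin. All 3 shScramble libraries lay below every other library, from 1.01 to 1.05. In RPL3L-WT the second-kind libraries stood at 2.16 and 1.90 and the first-kind library at 1.71, and in G27D, R161W and T189M the second-kind libraries also lay above the first-kind ones. The part of library kind in the ratio was not tested. No test was run on the ratio.

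**Figure D4:**
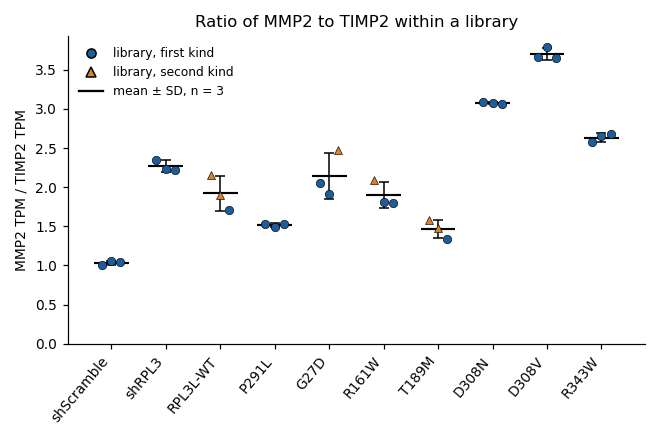
Ratio of MMP2 TPM to TIMP2 TPM in each library on a linear axis from 0, by group, with 1 point per library (circles, first kind; triangles, second kind) and the mean ± SD of 3. shScramble lies near 1.03, and the mean reaches 3.08 in D308N and 3.70 in D308V.

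How many of the members moved can be read against all genes. In shRPL3 against shScramble 4 of 7 tested members were called (1 higher, 3 lower), where 35.2% of all genes were (17.2% higher, 18% lower). In RPL3L-WT against shRPL3 the count was 3 of 7, against 36% of genes, and in RPL3L-WT against shScramble 3 of 7, against 46.7%. The shares for the last 2 comparisons lay close to those of all genes. With library kind in the model the count in shRPL3 against shScramble stayed at 4 of 7, against 48.9% of genes. It was 3 of 7 in RPL3L-WT against shRPL3 (26.4%) and 4 of 7 in RPL3L-WT against shScramble (44.7%).

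Against RPL3L-WT the count was 1 of 7 in P291L (2.75% of all genes), 3 of 7 in G27D (3.32%), 4 of 7 in R161W (16.7%, with 12.6% higher and 4.07% lower) and 1 of 7 in T189M (1.8%). It was 5 of 7 in D308N (33.2%) and 5 of 7 in D308V (30.6%). Between D308N and D308V, 3 of 7 were called, all lower in D308N, against 1.64% of all genes in either direction and 0.866% lower. They were MMP2 (-0.60, adjusted p = 3.6e-08 by limma), TIMP2 (-0.34, adjusted p = 0.0249) and MMP14 (-0.28, adjusted p = 0.0404). The TIMP2 call was lost without any 1 of 5 of the 6 libraries, and the MMP14 call without any 1 of 6, with adjusted p up to 0.115 and 0.158.

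With library kind in the model the counts against RPL3L-WT were 7 of 7 in D308V (28.9% of all genes) and 6 of 7 in D308N (30.3%). They were 4 of 7 for R161W (25%), 3 of 7 for G27D (10.3%), 1 of 7 for T189M (10.6%) and 1 of 7 for P291L (1.98%). Between D308N and D308V the count was then 4 of 7 (8.26%). The background thus moved more than the members' counts in G27D, T189M and the contrast of D308N with D308V.

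Against shRPL3, 4 of 7 members were called in P291L (19.6% of all genes), 4 of 7 in D308N (18.1%) and 6 of 7 in D308V (16.3%). In R343W it was 4 of the 6 tested without MMP3 (19.7%). With library kind in the model the counts were 5 of 7 in P291L (35.8%) and 4 of 7 in D308N (33.4%). They were 6 of 7 in D308V (32.1%) and 5 of 6 in R343W (35.5%). The share of all genes thus rose more than the members' counts. The fit without the filter called 6.06% of its genes in R343W against shRPL3, 11.5% in shRPL3 against shScramble and 16.5% in RPL3L-WT against shScramble, the comparisons in which MMP1 or TIMP4 was called. R343W against RPL3L-WT, a contrast with the libraries that chose MMP3, called 33.7% of all genes, and nothing is read from the members there. With only 6 or 7 genes tested, a share of members is coarse, and the members were chosen with earlier results known. The median over all genes was -0.19 in RPL3L-WT against shRPL3, -0.18 against shScramble and between 0.10 and 0.13 for D308N, R343W, R161W and D308V, each set against RPL3L-WT. The MMP2 fall in RPL3L-WT against shRPL3 remained called under median-ratio scaling, which removes that shift (-0.25, adjusted p = 0.00675).

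**Figure D5:**
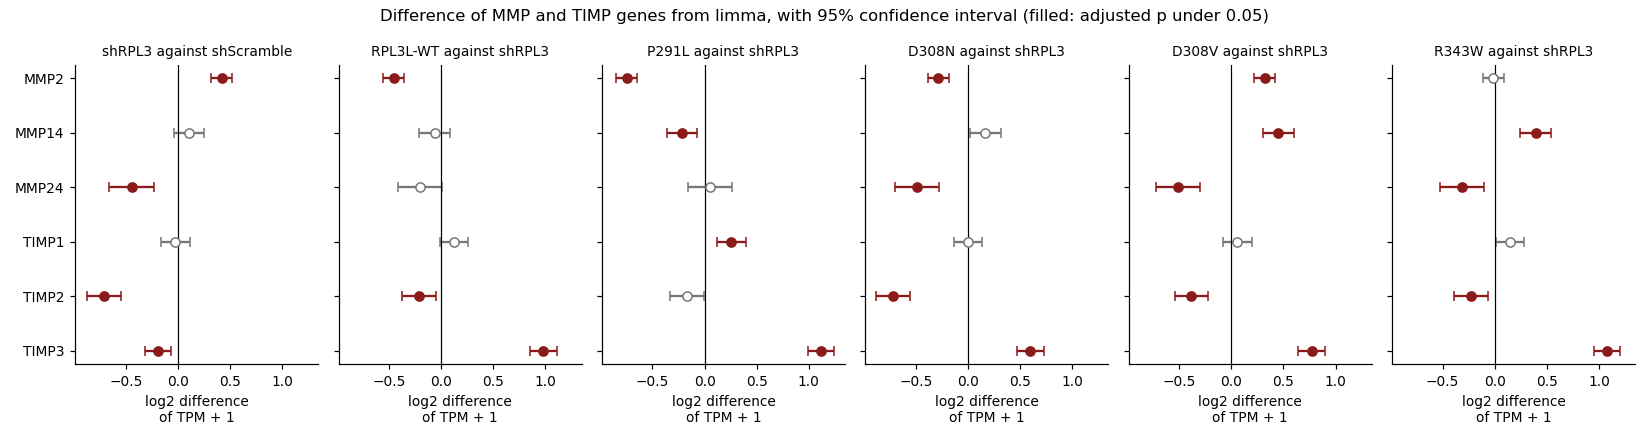
Log2 difference of TPM + 1 of 6 MMP and TIMP genes in 6 comparisons, with 95% confidence intervals from limma; filled points have an adjusted p under 0.05. TIMP3 lies at 0.60 to 1.11 in all 5 RPL3L lines shown against shRPL3, whereas MMP2 ranges from -0.75 in P291L to 0.32 in D308V.

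Genes around the proteases were read from lists in the R343W against shRPL3 comparison. Of 17 tested genes tied to MMP activation or to MMPs at the membrane, 10 were higher and 1 lower, where 7.22% of all genes were higher and 12.4% lower. The largest were SERPINB2, an inhibitor of plasminogen activators (1.82, adjusted p = 1.04e-12 by limma), PLAU, the urokinase that makes plasmin (1.36, adjusted p = 4.74e-08), and PLAT, the tissue plasminogen activator (0.82, adjusted p = 1.38e-05). The list's median difference was 0.38, beside -0.06 over all genes. Higher genes of this list were not particular to R343W. Against shRPL3, 7 were higher and 3 lower in RPL3L-WT (5.77% and 30.2% of all genes), with a median of 0.23. P291L had 6 and 2 (4.67% and 15%), with a median of 0.20. D308V had 4 and 0 (5.19% and 11.1%), and D308N 4 and 3 (5.73% and 12.4%), with medians of 0.07 and -0.19. Because the list holds an inhibitor beside activators, its count and median give no direction for activation. Of the 5 other MMP genes that passed the filter, only MMP16 was called, higher by 0.69 (adjusted p = 0.000126).

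Of 20 tested AP-1 and ETS transcription factors, families whose sites are found in many MMP promoters, 11 were higher and 0 lower in R343W than in shRPL3, with a median of 0.35, beside the same 7.22% and 12.4% of all genes. With library kind in the model 13 were higher and 1 lower, beside 12.7% and 22.8% of all genes. ETV1 (1.06, adjusted p = 0.000193 by limma), MAFF (1.03, adjusted p = 1.33e-08) and FOSL1 (0.95, adjusted p = 0.000147) led them. Of 9 tested cytokines and growth factors that induce MMPs, 5 were higher and 0 lower (5 and 2 with library kind in the model), led by IL1B, from 10.5 to 51.0 TPM (2.18, adjusted p = 6.21e-12), and IL6 (0.91, adjusted p = 3.8e-05). In D308V against shRPL3 the counts were 10 of 20 and 5 of 9 higher, with 0 and 1 lower (5.19% and 11.1% of all genes). D308N had 7 and 4 higher, with 0 lower in each list (5.73% and 12.4%). MMP3 was not called in D308N against shRPL3 (0.21, adjusted p = 0.614 by limma). P291L had 0 and 3 higher, with 3 and 0 lower (4.67% and 15%). RPL3L-WT had 1 and 2 higher, with 7 and 2 lower (5.77% and 30.2%). The shRPL3 libraries are common to all these comparisons, and any link of these lists to MMP3 was not tested.

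The matrix proteins that these proteases cleave went mostly the other way. Of 35 tested, 5 were higher and 19 lower in R343W than in shRPL3, with a median of -0.42, beside 7.22% of all genes higher and 12.4% lower. This was not particular to R343W. Against shRPL3, 4 were higher and 20 lower in D308N (5.73% and 12.4% of all genes), and 3 and 18 in D308V (5.19% and 11.1%). In RPL3L-WT 7 were higher and 16 lower (5.77% and 30.2%), and in P291L 10 and 10 (4.67% and 15%). In R343W DCN, the collagen-binding proteoglycan decorin, fell by 2.34 (adjusted p = 4.99e-08 by limma), and COL3A1, the chain of collagen III, fell by 1.97 (adjusted p = 1.01e-09). LAMA4, a laminin chain, rose by 1.91 (adjusted p = 2.17e-06). DCN and COL3A1 are also fibroblast markers, and the summed level of the 10 fibroblast markers was 4560 to 4760 TPM in R343W and 5010 to 5350 TPM in shRPL3. Its part in the result was not tested.

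The genes with a pattern most like that of MMP3 were found by Pearson's r over the 10 group means, among 9984 genes with a mean of at least 5 TPM in a group. They were FKBP1A (r = 0.949), HOMER3 (0.944), MCTP1 (0.940), SPRED2 (0.933) and TFAP2C (0.922). For MMP1 they were SPRED2 (0.968), LAMA4 (0.954), MMP3 (0.949), TFAP2C (0.908) and NABP2 (0.896). These values rest mostly on the R343W group, the highest for each of the genes just named. LAMA4 and MMP3 reached a mean of 5 TPM in R343W alone, so they entered the search only through that group. TIMP3 varied over more groups, and the closest to it were SPATA24 (0.927), HBEGF (0.878) and CPED1 (0.875). The points share their libraries, and r describes the groups with no test.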

How the data were processed

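Gene-level TPM were deposited by the authors as a single table, and they summed to 1000000 TPM in every whole-cell library. Tools listed without roles in the submitters' processing notes are kallisto, bcl2fastq 2.19, bedtools and Bowtie. For the index and build, nothing was found: not given in the sources used here. Of 60612 entries, 6 construct sequences were left out. PolyA RNA was made into libraries with TruSeq chemistry, per the labels. Values were analysed as log2(TPM + 1). limma 3.58.1 in R 4.3.3 fitted 1 model over 10 groups (eBayes with trend and robust, two-sided), on genes with a mean of at least 1 TPM, with Benjamini-Hochberg adjustment over genes within each of 14 comparisons. The fit was tested on simulated data. Alternatives were a pseudocount of 0.1, no filter, median-ratio scaling, the 2 groups alone, library kind as a term, first-kind libraries alone, a replicate block and leaving out each library.

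Members and gene lists were chosen with earlier results of these data known. All 10 members are named in the text; from a list, up to 4 called genes with the largest difference. R343W against RPL3L-WT, and MMP3 in R343W, were not tested. Replicate numbers come from the labels. By deviations from group means, same-numbered libraries correlated at over 0.1 in all 3 pairs (r = 0.191, 0.194 and 0.505) only for T189M against RPL3L-WT, groups with the same mix of library kinds. The block changed no call there (1 of 7 members called with the replicate block). Positions and 31-base words came from GRCh38 and GENCODE 29, promoters from RefSeq, where 6 members matched.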

Additional observations from a re-analysis of the deposited data

Results flagged for a closer look

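D308N and D308V change the same residue of RPL3L, and 3 MMP and TIMP genes were flagged because their effects differed between these lines in a direct contrast (limma, adjusted over all genes). MMP2 differed by -0.60 (279 against 425 TPM), MMP14 by -0.28 (75.0 against 91.4 TPM) and TIMP2 by -0.34 (90.8 against 115 TPM), all lower in D308N. Of all genes, 1.64% were called in this contrast. In each case all 3 D308N libraries lay below all 3 D308V libraries. The 3 genes were picked by the test on these same libraries, so this separation adds no support. The share of all genes with such a separation was not computed. The TIMP2 and MMP14 calls were lost without most single libraries, and the MMP2 call was not. No group held enough libraries for a test of single outlying samples.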

How the results depend on the processing

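Of 139 member results, 54 were called, and 33 of these were called under every alternative run for that gene. MMP1, MMP10 and TIMP4 failed the filter and had only 1 alternative, library kind as a term without the filter. Their calls were not refitted on leaving out single libraries. Leaving out 1 library lost 14 calls, the fit of 2 groups alone 16, no filter 7, median-ratio scaling 4, first-kind libraries alone 4 and library kind as a term 1; the pseudocount of 0.1 lost 0. Newly called were 9 under median-ratio scaling, 8 each with library kind and in first-kind libraries, and 2 each in the 2 groups alone and on leaving out 1 library. With the 2 groups alone, limma called 0 of 7 members against RPL3L-WT in P291L, G27D, R161W and T189M (2, 2, 4 and 2 at an unadjusted p under 0.05; 7, 1, 2 and 9 of all genes were called), 2 in D308N (15.3% of all genes) and 3 in D308V (13.8%). For RPL3L-WT against shScramble 6 members were called under median-ratio scaling (43.4% of all genes) and 5 of 10 with library kind and no filter (15.8%), a fit added after the data were seen. R343W against shRPL3 gave 7 of 9 in that fit (11.5%), and D308N against D308V gave 5 in first-kind libraries (9.42%). MMP2 in RPL3L-WT against shScramble reversed from -0.03 to 0.18 under median-ratio scaling, which removes the shift of all genes. MMP3 in R343W against RPL3L-WT was 3.31, 4.45 with a pseudocount of 0.1 and 3.22 in first-kind libraries. The cause was not tested elsewhere.

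Leaving out each library gave 3 to 4 calls for shRPL3 against shScramble, 2 to 3 for RPL3L-WT against shRPL3, and 3 throughout for RPL3L-WT against shScramble. Against RPL3L-WT it gave 1 to 2 in P291L, 1 to 3 in G27D, 4 in R161W, 1 in T189M, 2 to 5 in D308N and 3 to 5 in D308V. D308N against D308V gave 1 to 2. Against shRPL3 it gave 3 to 4 in P291L, 4 to 5 in D308N, 6 in D308V and 2 to 3 in R343W, and MMP3 in R343W against RPL3L-WT ranged from 3.28 to 3.35. The replicate block, with numbers that pair no samples by design, lost 0 calls and added 0. TPM keep no depth, so precision at low values, MMP1, MMP10 and TIMP4 among them, cannot be set from counts.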

Other observations

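Another list around these genes moved in the line labelled R161W. Of 35 tested matrix substrates, 13 were higher and 3 lower in R161W than in RPL3L-WT, with a median log2 difference of 0.26 beside 0.10 over all genes, of which 12.6% were higher and 4.07% lower. LAMA5, a laminin chain, was higher by 1.33 (adjusted p = 0.0009 by limma) and COL3A1 by 1.24 (adjusted p = 4.32e-06). Of 20 tested AP-1 and ETS factors, 1 was higher and 7 lower, beside the same shares of all genes, with JUN lower by 0.67 (adjusted p = 5.94e-06) and FOSL1 by 0.94 (adjusted p = 0.000346). With library kind in the model, 18 matrix substrates were higher and 4 lower, beside 16.1% and 8.87% of all genes. The AP-1 and ETS factors then had 1 higher and 8 lower. RPL3 was higher in R161W than in RPL3L-WT by 1.47 (adjusted p = 9.76e-06), and its part in these differences was not tested.

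In shRPL3 against shScramble, 8 of 20 tested AP-1 and ETS factors were higher and 1 lower, where 17.2% of all genes were higher and 18% lower, led by ATF3 (1.45, adjusted p = 5.96e-10 by limma) and JUN (1.38, adjusted p = 1.18e-11).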
